A study of Mus musculus with 58 samples.

Results

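Serotonin receptor RNA was examined in the prefrontal cortex of young mice, for the 10 receptor genes Htr1a, Htr1b, Htr1f, Htr2a, Htr2c, Htr3a, Htr4, Htr5a, Htr6 and Htr7. The genes were matched by symbol through the mouse GRCm38 annotation and are 10 of the 18088 genes in the table. The matching used no measured levels, but the genes were chosen with earlier results of these data known. All 10 passed the filter on low values. The mice carried the strain label C57BL/6J and were labelled HT (heterozygous) or WT for Tanc2, which encodes a synaptic scaffold protein. They received lithium, fluoxetine or vehicle through the dam's milk for 3 weeks, days 3 to 24 after birth, and tissue was taken on day 25. Lithium is a mood stabiliser, and fluoxetine inhibits the serotonin transporter.

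Poly(A)-selected RNA of 58 mice was sequenced, 30 female and 28 male. The arms were HT lithium (n = 9), HT fluoxetine (n = 10), HT vehicle (n = 10), WT lithium (n = 10), WT fluoxetine (n = 10) and WT vehicle (n = 9). Levels are normalized reads, that is, reads of a gene divided by a size factor of the library. Depth was 23270000 to 37800000 reads per library. Tanc2 RNA itself did not check the genotype labels: it averaged 8038 ± 572 normalized reads in HT-labelled mice and 7512 ± 382 in WT-labelled mice (SD, n = 29 each), and no label describes the allele. HT and WT below therefore name the label of each library. Reads of the predicted gene Gm10221 split the libraries: they were present in all 19 lithium libraries, in 5 of 5 HT fluoxetine females and in 3 of 5 WT fluoxetine females. They were at 0 in every vehicle library and every fluoxetine male, so that lithium against vehicle cannot be told apart from this split. Markers of cortical excitatory neurons were abundant everywhere; Slc17a7, the vesicular glutamate transporter of these cells, ran from 36296 to 56488 normalized reads. The labels name no litter, and pups of one dam share her drug, so the p-values measure the spread between these mice only.

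Serotonin fibres reach the cortex from the raphe nuclei of the brainstem, and the cells that receive them differ in which receptors they carry. Receptors of the HTR1 family and HTR5A couple to Gi/o proteins and lower cyclic AMP or open potassium channels. HTR2A and HTR2C couple to Gq and phospholipase C, HTR4, HTR6 and HTR7 couple to Gs and raise cyclic AMP, and HTR3A is a subunit of an ion channel. In cortex, HTR1A and HTR2A are best known from pyramidal neurons, and HTR3A marks a class of interneurons.

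The 5 genes that passed the test in at least 1 drug comparison are shown first by the sequence before their start, since members that changed in opposite directions can then be compared. Sequences are RefSeq promoter windows of build GRCm38.p6, printed 5′ to 3′ on the gene's strand and trimmed where needed to end before the annotated transcript. The windows are chr13:105443443-105443638 (+ strand) for Htr1a, chr16:65105855-65106034 (− strand) for Htr1f and chr5:27841697-27841946 (+ strand) for Htr5a. The genes themselves span chr13:105443639-105448122, chr16:64924729-65105854 and chr5:27842149-27855088. The windows of Htr2a and Htr2c are chr14:74640624-74640839 and chrX:146962263-146962512, both on the + strand, before genes at chr14:74640840-74709494 and chrX:146962513-147197277. Capitals mark a GC box, GGGCGG or its reverse complement CCGCCC.
Htr1a: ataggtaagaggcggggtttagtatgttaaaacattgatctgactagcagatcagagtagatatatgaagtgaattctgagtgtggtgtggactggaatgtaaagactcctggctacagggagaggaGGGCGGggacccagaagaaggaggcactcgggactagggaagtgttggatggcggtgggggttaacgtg
Htr1f: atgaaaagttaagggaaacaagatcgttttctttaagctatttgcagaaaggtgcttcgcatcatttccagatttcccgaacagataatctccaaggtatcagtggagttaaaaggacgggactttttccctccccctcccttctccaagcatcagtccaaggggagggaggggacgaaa
Htr5a: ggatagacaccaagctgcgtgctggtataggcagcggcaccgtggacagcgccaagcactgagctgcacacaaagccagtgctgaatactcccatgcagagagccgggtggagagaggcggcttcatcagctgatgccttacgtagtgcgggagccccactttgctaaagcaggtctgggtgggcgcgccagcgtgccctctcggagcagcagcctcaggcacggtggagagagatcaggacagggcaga
Htr2a: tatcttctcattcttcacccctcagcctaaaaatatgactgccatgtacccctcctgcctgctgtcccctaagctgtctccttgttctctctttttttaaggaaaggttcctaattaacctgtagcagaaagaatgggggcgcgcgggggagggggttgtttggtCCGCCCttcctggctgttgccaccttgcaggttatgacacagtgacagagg
Htr2c: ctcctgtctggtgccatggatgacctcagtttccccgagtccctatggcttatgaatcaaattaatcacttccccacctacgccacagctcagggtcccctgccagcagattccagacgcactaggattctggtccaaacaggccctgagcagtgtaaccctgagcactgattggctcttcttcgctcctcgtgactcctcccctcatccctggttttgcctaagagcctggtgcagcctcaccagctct
Windows were found for 8 of the 10 genes, and were searched on both strands for the CRE core TGACG, the TCF/LEF core CTTTGA, the EGR core GCGTGGG and the GC box. The GC box was the only motif found in the 5 windows shown, once each in 2 of them and with no overlap. Of the windows not shown, that of Htr6 holds the GC box, as do 32.7% of promoters in a window as long. That of Htr1b holds the TCF/LEF core, and that of Htr7 none of these motifs. In windows of 250 bases, 17.8% of promoters hold the CRE core, 13.8% the TCF/LEF core and 4.30% the EGR core. The GC box begins 123 bases before the RefSeq start of Htr1a and 85 before that of Htr2a. Those RefSeq starts lie inside the annotated genes, and the printed windows stop 54 and 34 bases short of them. Among 32851 promoters, 23.9% hold a GC box in a window as long as that of Htr1a (196 bases), and 27.9% in one as long as that of Htr2a (216 bases). Htr1a and Htr2a were both lower with lithium than with fluoxetine, and Htr1f, also lower, holds no GC box in its window, nor do Htr5a and Htr2c, which were higher. The Htr5a window holds 13 CG dinucleotides against a median of 6 over all promoters, and the other windows shown hold 4 or 5. The windows of Htr6 and Htr7, not among those shown, hold more, at 23 and 19. A match of letters is a description and not a site of binding.

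Htr2a was the most abundant receptor RNA for its length, and Htr4 the least. Per kb of annotated exon, Htr2a stood at 317 ± 35.2 normalized reads (SD, n = 58), above Htr2c in all 58 libraries. Htr2c (148 ± 32.5 per kb), Htr1a (140 ± 19.8 per kb) and Htr5a (137 ± 16.1 per kb) followed, and these neighbours lay within their spread of each other: Htr2c exceeded Htr1a in 35 of 58 libraries, and Htr1a exceeded Htr5a in 32 of 58. Htr3a stood at 102 ± 13.8 per kb, Htr1b at 72.1 ± 8.58 per kb and Htr7 at 55.5 ± 6.55 per kb, each apart from the next gene above by more than both SDs. Htr6 (42.1 ± 9.14 per kb) and Htr1f (35.1 ± 8.13 per kb) overlapped, with Htr6 higher in 37 of 58 libraries, and Htr6 and Htr7 also lay within their SDs of each other. Htr4 stood at 4.78 ± 1.79 per kb, below Htr1f in every library.

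**Figure D1:**
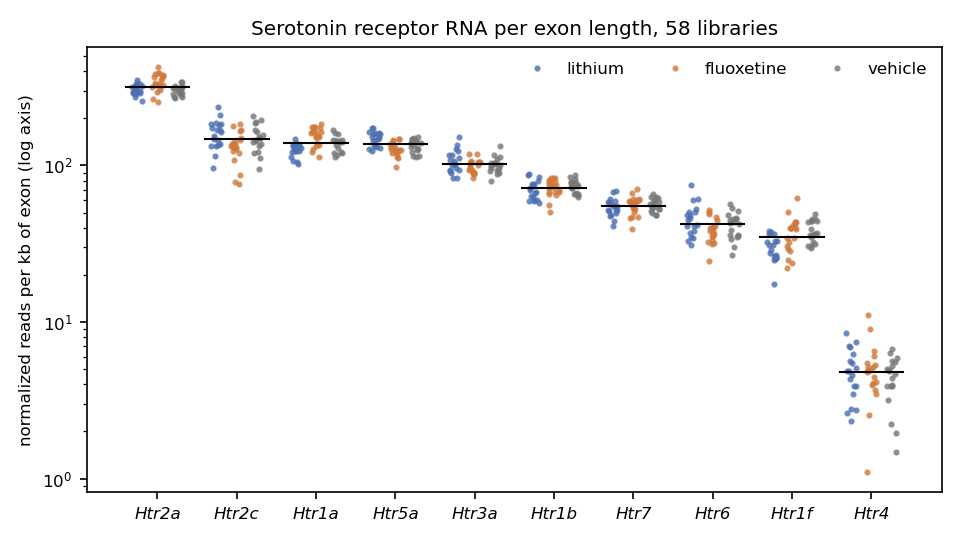
Normalized reads per kb of exon (log axis) for the 10 receptor genes, 1 point per library, coloured by drug, with a bar at the mean of all 58. Htr2a is highest at a mean of 317 per kb and Htr4 lowest at 4.78 per kb; the drug groups of each gene overlap.

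The spread between mice of 1 group differed among the genes. Htr2c had a within-group coefficient of variation of 22.3%, where counting error alone gives 2.78%. Htr5a varied by 9.73% and Htr2a by 10.2%. Htr4 varied by 37.9%, with a counting part of 21.3%, since its libraries held only 5 to 67 reads. Most of the spread of Htr4 thus lay between mice and not in counting.

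With lithium against fluoxetine, both averaged over genotype and sex, 5 of 10 receptor genes passed the test (limma, Benjamini-Hochberg adjusted p under 0.05 over 17925 genes). Of all genes tested, 18.2% passed, 9.41% higher and 8.74% lower. Htr1a, Htr1f and Htr2a were lower with lithium, and Htr5a and Htr2c were higher. The median log2 difference of the 10 genes was -0.02, and that of all genes -0.0020. Lithium and fluoxetine were compared directly here; the comparisons with vehicle further on share these same lithium and fluoxetine libraries, so the 3 are not independent.

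Htr1a, the Gi/o-coupled receptor that serves as autoreceptor on raphe neurons and as a target receptor in cortex, had the smallest p of the 10 in this comparison. It had 456, 568 and 663 normalized reads (lowest, median, highest) in HT lithium mice and 481, 589 and 604 in WT lithium mice. In fluoxetine mice it had 573, 689 and 733 in HT and 511, 760 and 826 in WT. Every one of the 19 lithium mice lay below the fluoxetine mean of its own genotype and sex, although the ranges overlapped and only 4 lay below the lowest fluoxetine mouse. The means were 565 ± 54.6 with lithium (SD, n = 19) and 691 ± 89.1 with fluoxetine (SD, n = 20), a log2 difference of -0.29 ± 0.06 (SE; adjusted p = 0.000173).

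Htr5a, a Gi/o-coupled receptor found almost only in the nervous system, went the other way. Its normalized reads were 666, 781 and 935 in HT lithium mice and 701, 833 and 930 in WT lithium mice, against 527, 678 and 741 in HT fluoxetine mice and 601, 684 and 795 in WT fluoxetine mice. Of 19 lithium mice, 18 lay above the matching fluoxetine mean and 11 above the highest fluoxetine mouse. The log2 difference was 0.22 ± 0.04 (SE; adjusted p = 0.000237).

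Htr1f, a Gi/o-coupled receptor related to Htr1b and known as the target of the ditan drugs for migraine, had 44.9, 79.6 and 99.1 normalized reads in HT lithium mice and 66.2, 72.8 and 97.3 in WT lithium mice. It had 56.7, 86.2 and 105 in HT fluoxetine mice and 63.9, 110 and 160 in WT fluoxetine mice. The ranges overlapped widely, with 16 of 19 lithium mice below the matching fluoxetine mean. The log2 difference was -0.29 ± 0.09 (SE; adjusted p = 0.0223).

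The pair of Gq-coupled receptors moved in opposite directions. Htr2a, the receptor through which psychedelic drugs act, had 1451, 1797 and 1968 normalized reads in HT lithium mice and 1523, 1687 and 1858 in WT lithium mice, against 1435, 1867 and 2143 in HT fluoxetine mice and 1481, 1917 and 2376 in WT fluoxetine mice. It was lower than the matching fluoxetine mean in 17 of 19 lithium mice, with a log2 difference of -0.14 ± 0.05 (SE; adjusted p = 0.0186). Htr2c, whose RNA is edited by ADAR enzymes, had 896, 1701 and 2215 normalized reads in HT lithium mice and 1075, 1448 and 1709 in WT lithium mice, against 710, 1306 and 1726 in HT fluoxetine mice and 734, 1228 and 1658 in WT fluoxetine mice. It was higher in 17 of 19 lithium mice, with a log2 difference of 0.28 ± 0.10 (SE; adjusted p = 0.0472). No lithium mouse left the fluoxetine range of Htr2a, and 4 lay above that of Htr2c.

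**Figure D2:**
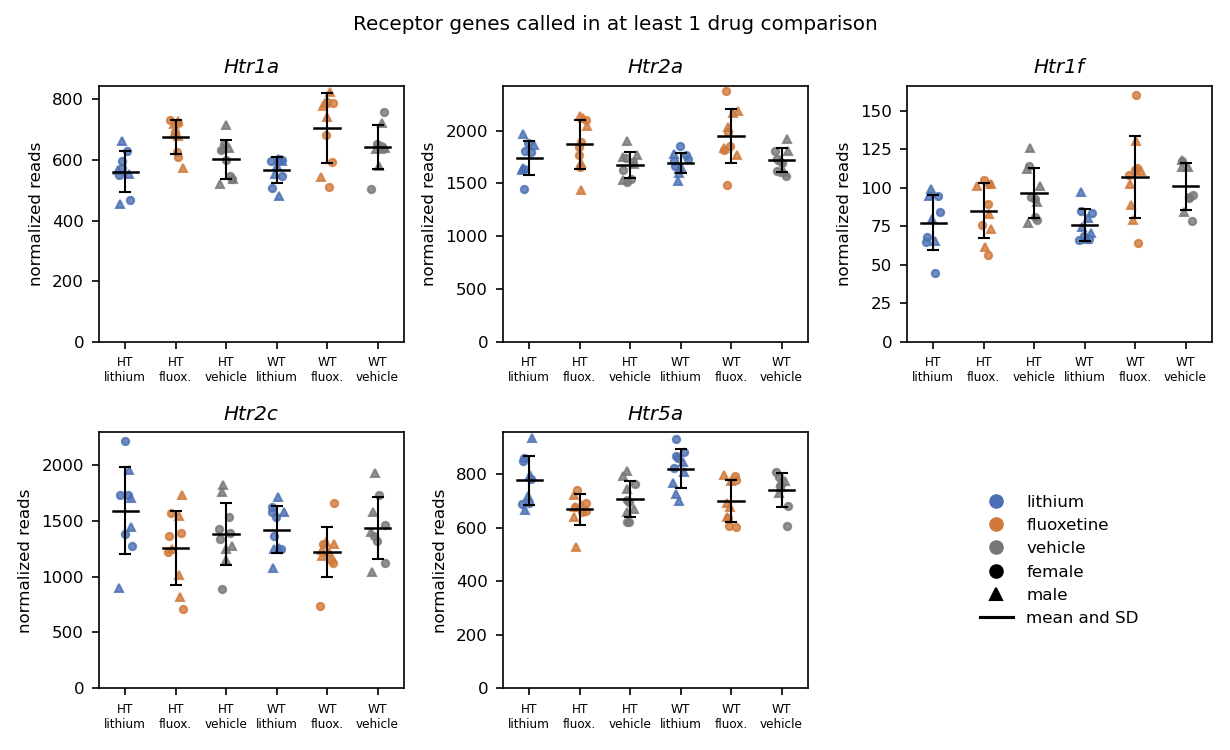
Normalized reads of the 5 receptor genes called in at least 1 drug comparison, 1 point per mouse (circles female, triangles male), by genotype label and drug, with mean and SD; axes start at 0. Htr1a lies lower and Htr5a higher in the lithium arms than in the fluoxetine arms, with overlapping ranges.

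The other 5 genes did not pass. Htr6, a Gs-coupled receptor, differed by 0.20 ± 0.09 on the log2 scale (adjusted p = 0.114), and Htr3a by 0.11 ± 0.05 (adjusted p = 0.146). Their 95% intervals, 0.02 to 0.38 for Htr6 and 0.004 to 0.22 for Htr3a, left out 0. Intervals for Htr1b (-0.14 to 0.08), Htr7 (-0.15 to 0.07) and Htr4 (-0.38 to 0.35), all 95% and on the log2 scale, included 0. That of Htr4 is too wide to exclude any of the called changes. That of Htr7 takes in the smallest of them, Htr2a at -0.145, and that of Htr1b ends close to it.

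Within the female libraries that hold Gm10221 reads, 10 with lithium and 8 with fluoxetine, the 5 differences kept their direction. Htr5a was 0.29 on the log2 scale (adjusted p = 0.0183) and was the only one to pass. Htr1a was -0.19 (adjusted p = 0.186) and Htr2a -0.11 (adjusted p = 0.455), while Htr1f was -0.52 (adjusted p = 0.0759) and Htr2c 0.48 (adjusted p = 0.0973). The last 2 were over 1.5 times as large as in all libraries, a set that also holds males. The main fit by sex gave, for all females, Htr1f at -0.40 (adjusted p = 0.0658) and Htr2c at 0.39 (adjusted p = 0.118). Among females only Htr5a passed (0.27, adjusted p = 0.00733), and among males only Htr1a (-0.33, adjusted p = 0.00435). In a fit of all libraries with a term for Gm10221 reads, and sex as an added term, Htr1f (-0.50, adjusted p = 0.00806) and Htr5a (0.23, adjusted p = 0.025) passed. Htr1a did not (-0.22, adjusted p = 0.0665). Male libraries give no value within either class, since Gm10221 reads were in all male lithium libraries and in no male fluoxetine library. The Htr2c call was also lost with any one of 24 libraries left out, with adjusted p up to 0.0984, with a replicate block (adjusted p = 0.0515), with quantile normalization (adjusted p = 0.0501) and in a fit of the compared groups alone (adjusted p = 0.0652).

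Where 9.41% of all genes were higher with lithium than with fluoxetine, 2 of 8 striatal markers were higher and none was lower. Their summed level ran from 5361 to 19162.5 normalized reads in HT lithium and from 6018 to 19162 in WT lithium mice, against 4991 to 12449 in HT fluoxetine and 5026 to 6251 in WT fluoxetine mice. Without the 5 libraries highest in them, Htr1f was -0.21 (adjusted p = 0.161) and Htr2c 0.28 (adjusted p = 0.0843), while Htr1a, Htr2a and Htr5a passed. With the striatal score as a term in the fit of all libraries, Htr1f passed (-0.29, adjusted p = 0.0374) and Htr2c did not (0.20, adjusted p = 0.197). Of those 5 libraries, 3 were lithium and 2 fluoxetine mice.

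With lithium against vehicle, averaged over genotype and sex, 2 of 10 receptor genes passed, Htr1f lower and Htr5a higher. Of all genes tested, 24.3% passed, 12.1% higher and 12.2% lower, so the share among the receptors is no higher than the background. Htr1f had 77.1, 93.3 and 126 normalized reads in HT vehicle mice and 78.4, 95.3 and 118 in WT vehicle mice, set beside the lithium values above. Of 19 lithium mice, 18 lay below the vehicle mean of their genotype and sex, and 10 lay below the lowest vehicle mouse. The mean was 76.6 ± 14.0 with lithium and 98.7 ± 15.4 with vehicle (SD, n = 19 each), a log2 difference of -0.37 ± 0.09 (SE; adjusted p = 0.00299).

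Taken by genotype label, Htr1f differed by -0.33 ± 0.13 on the log2 scale in HT mice (adjusted p = 0.0888), where 0 of 10 receptors passed against 16.3% of all genes (8.25% higher and 8.03% lower); 3 had an unadjusted p under 0.05, and edgeR and DESeq2 also called 0. In WT mice it differed by -0.41 ± 0.13 on the log2 scale (adjusted p = 0.0496), the 1 receptor of 10 to pass against 7.47% of all genes (4.34% higher and 3.13% lower). The WT call was lost with any one of 15 of the 19 libraries left out. The difference between the genotypes was 0.08 ± 0.19 on the log2 scale (95% interval -0.30 to 0.46), so the 2 were not shown to differ.

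Htr5a had 621, 700 and 814 normalized reads in HT vehicle mice and 607, 756 and 807 in WT vehicle mice. It was above the matching vehicle mean in 15 of 19 lithium mice, and 9 exceeded the highest vehicle mouse. The log2 difference was 0.14 ± 0.05 (SE; adjusted p = 0.0207). That call was lost without the library HT lithium male 4, the highest of all 58 at 935 normalized reads (0.11 on the log2 scale, adjusted p = 0.0521). Htr1a, at 621 ± 69.7 normalized reads with vehicle (SD, n = 19), was lower in 16 of 19 lithium mice but did not pass (-0.14 ± 0.06, adjusted p = 0.0652). It passed in a fit of the compared groups alone (adjusted p = 0.0422) and with an olfactory bulb marker term (-0.12, adjusted p = 0.0387).

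None of the remaining receptors passed. Htr2a differed by 0.01 ± 0.05 on the log2 scale, with a 95% interval of -0.08 to 0.11. Htr2c differed by 0.08 ± 0.10 and Htr3a by 0.09 ± 0.05, while Htr1b, Htr4, Htr6 and Htr7 lay between -0.06 and 0.12.

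Striatal markers moved with the lithium arms. Beside the lithium sums above, those of the 8 genes ran from 4455 to 5602 in HT vehicle and 4587 to 6723 in WT vehicle mice. Of the 8, 4 passed with lithium against vehicle, all higher, among them Penk, which encodes the enkephalin precursor, at 0.69 ± 0.13 on the log2 scale (adjusted p = 5.38e-05). Without the 5 libraries highest in these markers, Htr1f kept its call (-0.33, adjusted p = 0.0124) and Htr5a did not (0.11, adjusted p = 0.0737). Of other marker lists, 1 of 6 deep-layer genes and 1 of 7 choroid plexus genes rose with lithium. So did 1 of 7 markers of interneurons of caudal origin and 1 of 4 of claustrum and layer 6b. None of 5 general markers of cortical excitatory neurons, of 3 inhibitory neuron markers or of 4 olfactory bulb markers rose. Beside all these counts, 12.1% of all genes were higher with lithium than with vehicle. In such bulk tissue, fewer cells of a type and less RNA per cell cannot be told apart.

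The fit with a term for Gm10221 reads used the arms of genotype and drug with sex as an added term, in place of the 12 groups. Only the fluoxetine arms hold libraries of both classes, and among HT fluoxetine mice the classes are the sexes. The fit thus takes the fluoxetine difference to be alike in both sexes. With this term, no receptor passed against vehicle. Htr1f then stood at -0.72 on the log2 scale (adjusted p = 0.0621), over 1.5 times its value above, and Htr5a at 0.15 (adjusted p = 0.405).

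With fluoxetine against vehicle, averaged over genotype and sex, Htr2a was the 1 receptor of 10 that passed, against 6.15% of all genes (2.68% higher and 3.47% lower). Htr2a had 1509, 1694 and 1906 normalized reads in HT vehicle mice and 1571, 1724 and 1923 in WT vehicle mice, beside the fluoxetine values above. Among 20 fluoxetine mice, 17 lay above the matching vehicle mean and 9 above the highest vehicle mouse, while 2 lay below the lowest. The mean was 1910 ± 243 with fluoxetine (SD, n = 20) and 1697 ± 117 with vehicle (SD, n = 19), and the log2 difference was 0.16 ± 0.05 (SE; adjusted p = 0.0217).

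Htr1a was higher than the matching vehicle mean in 16 of 20 fluoxetine mice, without passing (0.15 ± 0.06 on the log2 scale, adjusted p = 0.111). Htr2c, at -0.20 ± 0.10 (adjusted p = 0.299), and Htr5a, at -0.09 ± 0.04 (adjusted p = 0.293), were below 0 without passing. The other receptors lay between -0.10 and 0.13 on the log2 scale. In HT mice 0 of 10 receptors passed, against 3.54% of all genes (1.46% higher and 2.09% lower), and 0 of 10 in WT mice, against 1.38% (0.469% higher and 0.915% lower); edgeR and DESeq2 on the recovered reads also gave 0 in each. At an unadjusted p under 0.05 there were 2 receptors in HT and 1 in WT mice.

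Htr2a was higher with fluoxetine by 0.15 ± 0.06 in HT mice (adjusted p = 0.195) and by 0.17 ± 0.06 in WT mice (adjusted p = 0.259). The difference between these was -0.02 ± 0.09 on the log2 scale. In libraries without Gm10221 reads it was 0.15 (adjusted p = 0.159), so that the size of the difference held and the call did not.

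**Figure D3:**
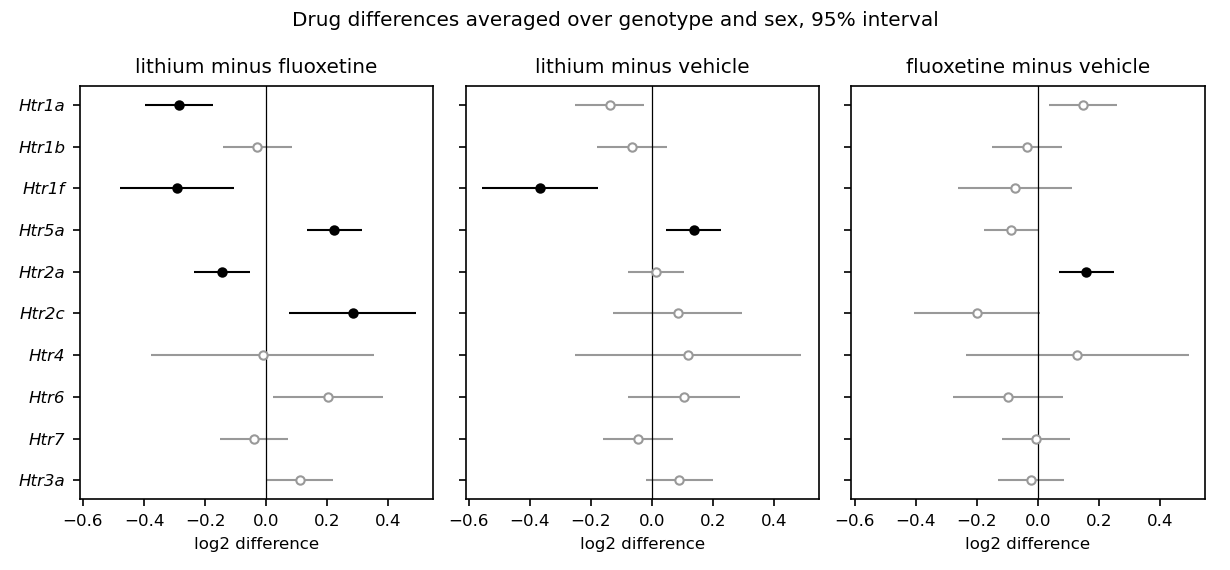
Log2 difference (x axis) of each receptor gene for lithium minus fluoxetine, lithium minus vehicle and fluoxetine minus vehicle, averaged over genotype and sex, with 95% intervals; filled points passed the test. Htr1a and Htr2a lie below 0 with lithium against fluoxetine, and Htr5a above 0.

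The study also set Tanc2 HT mice against WT mice in each drug arm, and here no receptor passed. The counts were 0 of 10 under lithium, under fluoxetine, under vehicle and over the drugs together, and of all genes 0% passed in each of the 4. At an unadjusted p under 0.05 there was 1 receptor under lithium, 1 under fluoxetine, 0 under vehicle and 1 over the drugs, and edgeR and DESeq2 called 0 receptors in each. Htr3a under lithium had the smallest unadjusted p (0.00113). It had 193, 243 and 315 normalized reads in HT lithium mice and 173, 205 and 242 in WT lithium mice, a log2 difference of 0.27 ± 0.08 (SE; adjusted p = 0.168). Without HT lithium male 4, the lowest HT lithium mouse for Htr3a, it was 0.33 (adjusted p = 0.0419). Htr1f under fluoxetine had 56.7, 86.2 and 105 normalized reads in HT mice and 63.9, 110 and 160 in WT mice, a log2 difference of -0.32 ± 0.13 (adjusted p = 0.732).

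Averaged over drugs, the genotype intervals bound what could have been missed. For Htr2a the 95% interval was -0.09 to 0.05 on the log2 scale, and for Htr1a -0.14 to 0.04. For Htr7 it was -0.13 to 0.05, and for Htr4, the least abundant, -0.35 to 0.25. For Htr3a it was 0.02 to 0.19, which leaves out 0, although the gene did not pass (limma adjusted p = 0.604). The intervals of Htr1f (-0.28 to 0.03) and Htr6 (-0.28 to 0.02) included 0 and reached well below it. Tests of whether the lithium or the fluoxetine difference depended on genotype called 0 of 10 receptors, and 0% of all genes.

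**Figure D4:**
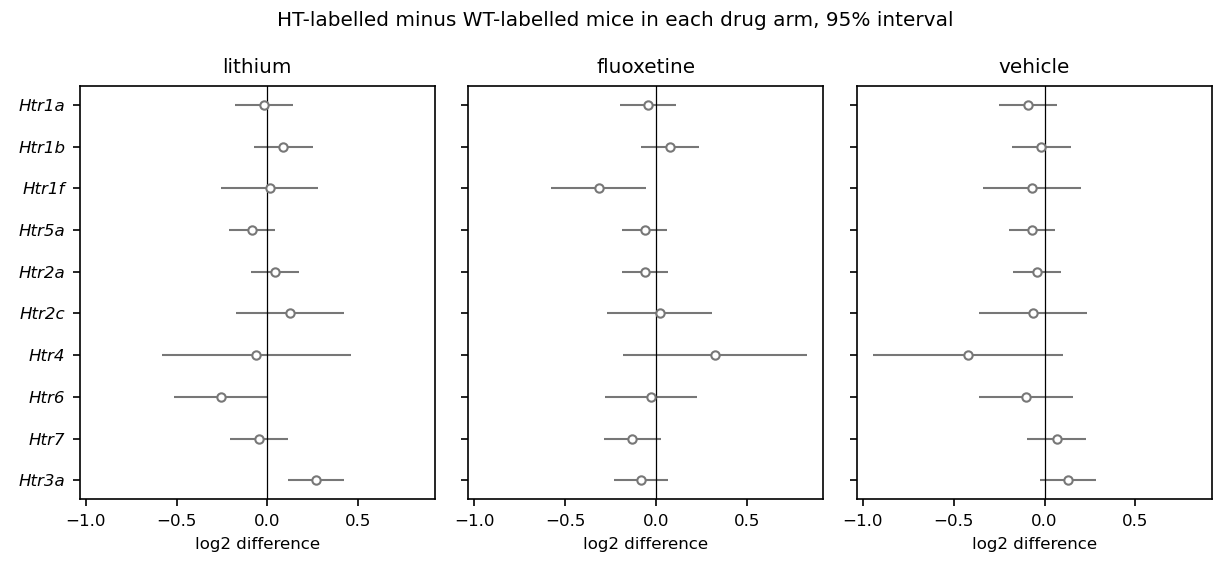
Log2 difference (x axis) of HT-labelled minus WT-labelled mice for the 10 receptor genes under lithium, fluoxetine and vehicle, with 95% intervals. No gene passed the test; Htr3a under lithium lies at 0.27, and the interval of Htr4 is the widest.

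The sexes were compared over all drugs and genotypes. For female against male mice 0 of 10 receptors passed, against 0.301% of all genes (0.218% higher and 0.0837% lower), and 0 had an unadjusted p under 0.05; edgeR and DESeq2 also called 0. The largest estimate was that of Htr4, at 21.3 ± 6.53 normalized reads in females (SD, n = 30) and 25.8 ± 10.3 in males (SD, n = 28), a log2 difference of -0.23 ± 0.15. The test of whether a drug difference depended on sex called 0 receptors for lithium (0% of all genes) and 0 for fluoxetine (0.0335% of all genes, 0.0223% higher and 0.0112% lower); no receptor had an unadjusted p under 0.05 in either, and edgeR and DESeq2 called none. For Htr6 the lithium difference was 0.29 ± 0.13 in females and -0.08 ± 0.13 in males on the log2 scale, and the test of that contrast gave an unadjusted p of 0.0526. For Htr5a it was 0.23 ± 0.06 in females and 0.05 ± 0.07 in males, with an unadjusted p of 0.0533; its female value passed by itself (adjusted p = 0.0114) and its male value did not (adjusted p = 0.714).

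Among the genes that make, move and break down serotonin, those of serotonin neurons were low. Tph2, the enzyme that makes serotonin in raphe neurons, ran from 4.16 to 63.9 normalized reads over the 58 libraries, and the vesicular transporter Slc18a2 from 2.61 to 85.1. With lithium against vehicle, 2 of 11 genes rose and 1 fell, a share near the 24.3% of all genes that passed. Slc29a4, a low-affinity monoamine transporter, had 570 ± 96.9 normalized reads with lithium and 462 ± 43.7 with vehicle (SD, n = 19 each), a log2 difference of 0.29 ± 0.06 (adjusted p = 0.000214). Aldh2, an aldehyde dehydrogenase, rose by 0.08 ± 0.03 (adjusted p = 0.0488), and Qdpr, which regenerates the cofactor of tryptophan hydroxylase, fell by 0.10 ± 0.03 (adjusted p = 0.0274). With fluoxetine against vehicle, where 6.15% of all genes passed, 1 of 11 rose and none fell: Maob, a monoamine oxidase found mainly in glia and serotonin neurons, had 632 ± 75.5 normalized reads with fluoxetine (SD, n = 20) and 551 ± 52.6 with vehicle (SD, n = 19), a log2 difference of 0.19 ± 0.05 (adjusted p = 0.00809).

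Genes for coupling proteins and receptor partners are set beside the same background, 24.3% of all genes with lithium against vehicle (12.1% higher and 12.2% lower) and 6.15% with fluoxetine, and none of the counts is read as particular to its list. In the Gi/o list 3 of 14 genes rose and 1 fell: the G-protein subunits Gnai2, Gnaz and Gnb1 rose by 0.09 ± 0.03, 0.12 ± 0.04 and 0.08 ± 0.02 on the log2 scale, and the potassium channel subunit Kcnj9 fell by 0.13 ± 0.05. In the Gs list 1 of 17 rose, Gnas at 0.09 ± 0.03, and 1 fell, the protein kinase A regulatory subunit Prkar1a at -0.07 ± 0.02. None of 11 genes of the Gq list passed with lithium, and with fluoxetine 1 rose, the phospholipase Plcb4 at 0.13 ± 0.04 (adjusted p = 0.0457). Among 13 genes for proteins that bind, desensitise or edit the receptors or their RNA, 1 rose and 4 fell with lithium. S100a10, which encodes p11, a partner of HTR1B and HTR4, had 487 ± 69.5 normalized reads with lithium and 419 ± 38.0 with vehicle (SD, n = 19 each), a log2 difference of 0.22 ± 0.05 (adjusted p = 0.000482). The 4 that fell were the arrestins Arrb1 (-0.07 ± 0.02) and Arrb2 (-0.09 ± 0.03), the receptor kinase Grk3 (-0.14 ± 0.04) and the editing enzyme Adar (-0.05 ± 0.02).

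Within the groups, the level of several receptor genes went with the marker makeup of a library. For each receptor, the log2 level with group means removed was set against 8 marker scores over the 58 libraries (olfactory bulb, striatum, choroid plexus, cortical excitatory neurons, inhibitory neurons, interneurons of caudal origin, deep layers, and claustrum with layer 6b). This makes 80 relations, tested by permutation within groups with Benjamini-Hochberg adjustment over all 80. A permutation p of 1e-05 was the smallest these permutations can give. The scores move together, the choroid plexus and olfactory bulb scores with r = 0.71, and their parts were not separated here. The summed level of the 4 olfactory bulb markers differed widely within every arm, for example from 1683 to 19289 normalized reads in WT fluoxetine mice and from 2180 to 10098 in WT vehicle mice, and none of the 4 passed in any of the 3 drug comparisons.

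Htr1a was lower where the olfactory bulb score was higher (Pearson r = -0.61, Spearman rho = -0.61, permutation p = 1e-05 for each, adjusted p = 6.15e-05 for r). The correlation was -0.58 without the 2 libraries farthest from the median, -0.35 in the 27 libraries with Gm10221 reads and -0.79 in the 31 without. Htr1f went the other way (r = 0.60, rho = 0.62, permutation p = 1e-05 for each, adjusted p = 6.15e-05 for r; 0.56 without the 2 farthest libraries, 0.64 with and 0.57 without Gm10221 reads). Htr1b (r = -0.64), Htr4 (r = -0.55), Htr5a (r = -0.61) and Htr6 (r = -0.62) also ran against the score, each with an adjusted permutation p of 6.15e-05. Htr2a was weaker (r = -0.36, adjusted permutation p = 0.0494; rho = -0.27, adjusted p = 0.107). Htr2c (r = -0.05), Htr3a (r = 0.18) and Htr7 (r = 0.11) did not pass (adjusted permutation p for r of 0.813, 0.251 and 0.579 in that order).

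The score of cortical excitatory neurons gave correlations as large, with the opposite sign. Htr1a ran with it (r = 0.69, rho = 0.67, adjusted permutation p = 6.15e-05 for r; 0.64 without the 2 farthest libraries, 0.56 with and 0.79 without Gm10221 reads). Htr1b had r = 0.71 and Htr5a r = 0.66, both with an adjusted permutation p of 6.15e-05, while Htr1f ran against the score (r = -0.51, adjusted permutation p = 0.00193). Htr2a also ran with it (r = 0.58, rho = 0.44, adjusted permutation p = 0.00151 for r), at 0.39 without the 2 farthest libraries. So did Htr6 (r = 0.53, adjusted permutation p = 0.000267) and Htr4 (r = 0.45, adjusted permutation p = 0.00723). Htr2c, Htr3a and Htr7 did not pass. With the score of inhibitory neurons, Htr1a had r = -0.67 and Htr1f r = 0.64, both with an adjusted permutation p of 6.15e-05. Htr5a ran against the choroid plexus score (r = -0.67, rho = -0.62, adjusted permutation p = 6.15e-05 for r). Htr6 went with the deep-layer score (r = 0.60, rho = 0.58, adjusted permutation p = 0.000421 for r).

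Htr2c had its closest relation with the score of interneurons of caudal origin (r = -0.67, rho = -0.66, adjusted permutation p = 6.15e-05 for r). The correlation was -0.62 without the 2 farthest libraries, -0.64 with and -0.70 without Gm10221 reads. That score is the mean of Vip, Cck, Reln, Npy, Adarb2, Prox1 and Lamp5. With the score of inhibitory neurons in general, Htr2c did not pass (r = -0.12, adjusted permutation p = 0.579). Htr3a passed with none of the 8 scores.

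**Figure D5:**
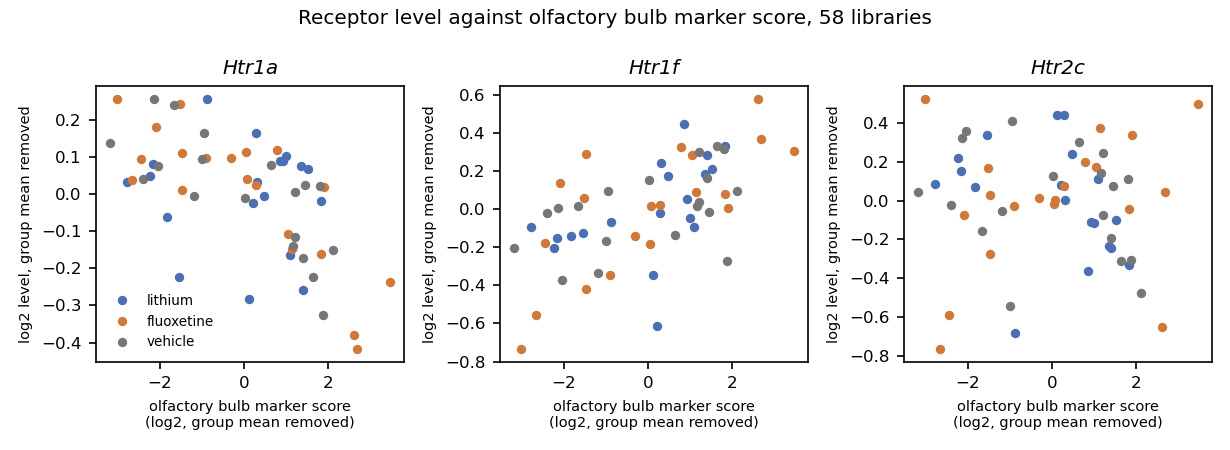
Log2 level with the group mean removed (y axis) against the olfactory bulb marker score with the group mean removed (x axis) for Htr1a, Htr1f and Htr2c, 1 point per library, coloured by drug. Htr1a falls with the score (r = -0.61), Htr1f rises (r = 0.60) and Htr2c does neither (r = -0.05).

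With the olfactory bulb score in the fit, the called genes kept their direction. Htr1a with lithium against fluoxetine was -0.25 on the log2 scale, Htr5a 0.25 and Htr1f -0.35. With lithium against vehicle, Htr1f was -0.40 and Htr5a 0.15, and both passed in HT mice (adjusted p of 0.0127 and 0.0318) and in WT mice (adjusted p of 0.0069 and 0.0431). Htr1a then passed with lithium against vehicle, and Htr6 with lithium against fluoxetine (0.27, adjusted p = 0.0056).

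The striatal score ran with Htr4 (r = 0.42, rho = 0.45, adjusted permutation p = 0.00138 for r) and Htr6 (r = 0.48, rho = 0.48, adjusted permutation p = 0.00723 for r). The Htr6 relation rests in part on few libraries, at 0.28 without the 2 farthest and 0.13 in libraries without Gm10221 reads. Htr2c had r = 0.35 (adjusted permutation p = 0.0332; rho = 0.31, adjusted p = 0.0803), and 0.38 without the 2 farthest libraries. Htr1f did not go with this score over all libraries (r = 0.01, adjusted permutation p = 0.967). Its r was -0.24 in libraries with Gm10221 reads and 0.37 in those without. Htr1b had r = 0.37 (adjusted permutation p = 0.0434), which dropped to 0.16 without the 2 farthest libraries. Htr5a passed by rank (rho = 0.32, adjusted permutation p = 0.0429) and not by Pearson r (0.19, adjusted permutation p = 0.331). Its r was 0.48 in libraries with Gm10221 reads and -0.17 in those without.

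For each receptor the genes with the most similar variation between libraries were sought among 11800 or 11801 named genes with a mean of at least 100 normalized reads, by Pearson r over the 58 libraries after removal of group means. Libraries share tissue makeup and depth, so these values are a description. Htr2c had the closest partners, Lmo3 (r = 0.90), Nmbr (r = 0.90) and Fam19a2 (r = 0.87). For Htr1a they were Nefl (r = 0.83), Dpy19l1 and St3gal5, for Htr1b Kcnab1 (r = 0.85), Trpc1 and Epha7, and for Htr1f Zfp385b (r = 0.81), Xpr1 and Ppm1e. Htr5a ran with Nceh1 (r = 0.83), Dnajc6 and Plxdc1, Htr2a with Megf9 (r = 0.83), Oxr1 and Nckap1, and Htr6 with Prrt3 (r = 0.80), Lingo3 and Rap1gap. The lowest top values were those of Htr4 with Lhx6 (r = 0.67), Vwc2l and Olfml2b, Htr7 with Dscam (r = 0.66), Nova1 and Dnm3, and Htr3a with Tap2 (r = 0.64), Bmp1 and Cpxm1. Exons of Htr1b overlap those of the antisense gene D430036J16Rik; the kit keeps strand, per the labels, but no source used here says whether counting did, so Htr1b values may hold reads of both.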

How the data were processed

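Strand-specific poly(A) libraries of 58 prefrontal cortex samples were sequenced, per the labels' protocols. The authors deposited 1 signal per gene and library, its normalized count. Their processing notes, as submitted, name GRCm38, DESeq2 1.19.11, Salmon 0.11.2 and R 3.6.0. In every library the entries divided evenly by 1 step between 0.788 and 1.30 (100% whole within 0.01), which gave back the reads; in 11 libraries the step lies too near 1 to tell reads from rounded values. The main test was limma 3.58.1 with trend (R 4.3.3) on log2(value + 1), for 17925 genes that reached 10 normalized reads in 4 or more libraries, in 1 fit of 12 groups of genotype, drug and sex, with sexes weighed equally, two-sided, and Benjamini-Hochberg adjustment over all genes in each of 16 comparisons. Fold changes on this scale understate those of low genes. edgeR 4.0.16 and DESeq2 1.42.0 on recovered reads were alternatives. The procedure was checked on simulated data. Gene names, exon lengths and overlaps came from GENCODE, where 18077 of 18088 IDs matched. Correlations used 100000 permutations within groups. Receptor genes and gene lists were chosen with earlier results of these data known. All receptors are named, pathway genes where they passed, and the 3 most similar genes per receptor. The olfactory bulb term, the 2-score term, the removal of 5 libraries and the female libraries with Gm10221 reads were chosen after seeing the data. Replicate numbers did not pair samples (mean correlation -0.000172 between same-numbered samples). No 2 libraries agreed within sampling noise (smallest chi-square per degree of freedom 3.15).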

Additional observations from a re-analysis of the deposited data

Results flagged for a closer look

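Among 120 sets of 4 or 5 mice (10 receptor genes in 12 groups), 4 held a mouse far from the others of its group by Dixon's test; chance alone flags about 1 in 20 groups. Htr1f was 84.0 normalized reads in WT vehicle male 2, where the next mouse of that group had 113. Htr3a was 173 in WT fluoxetine male 4, where the next had 207. Htr4 was 54.1 in HT fluoxetine male 3, where the next had 26.9, and this library is among the 5 highest in striatal markers. Htr7 was 133 in HT fluoxetine female 4, where the next had 180.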

How the results depend on the processing

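No receptor difference reversed a call under any alternative run, and edgeR, DESeq2 and other pseudocounts gave the same receptor calls as limma. With lithium in WT mice, 1 receptor passed; 0 did with no low-value filter, with the Gm10221 term, with the striatal term or without the 5 libraries highest in striatal markers, and 2 with the choroid plexus or the olfactory bulb term. With lithium in HT mice (0), 2 passed with either of those last terms and 1 with both marker scores. With fluoxetine over genotypes (1), 0 passed with the Gm10221 term or only in libraries without its reads, and 2 with the choroid term. With lithium over genotypes (2), 0 passed with the Gm10221 term, 1 with the striatal term or without the 5 libraries, and 3 (Htr1a added) with the compared groups alone or the olfactory term. With lithium against fluoxetine (5), 2 passed with the Gm10221 term, 3 without the 5 libraries or with both scores, and 1 in the female libraries with Gm10221 reads; 4 (Htr2c lost) with quantile normalization, the compared groups alone or the striatal term, and 6 (Htr6 added) with the choroid or olfactory term. Leaving out 1 mouse at a time gave 0 to 1 for lithium in WT and in HT, fluoxetine in HT and genotype under lithium, 1 to 2 for fluoxetine over genotypes, 2 to 3 for lithium over genotypes and 4 to 6 for lithium against fluoxetine. The replicate block changed 1 call, Htr2c with lithium against fluoxetine (0.29, adjusted p = 0.0515); same-numbered samples correlated above 0.1 in 23.9% of pairs, and 22.4% of libraries were closest to their own number.

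Counts over all genes fell with the Gm10221 term to 5 for lithium over genotypes (4351), 3 for lithium in WT (1339), 0 for lithium in HT (2919), 1106 for lithium against fluoxetine (3254), 386 for fluoxetine over genotypes (1103), 184 for fluoxetine in HT (635) and 129 for fluoxetine in WT (248). Without libraries that hold those reads, fluoxetine gave 447, 96 and 140, and the female libraries with them gave 346 for lithium against fluoxetine. A fit of the compared groups alone gave 158 for fluoxetine in WT, and removal of the 5 libraries 865 for lithium in WT. For genotype under lithium (0), DESeq2 gave 16, a stricter filter 8, the Gm10221 term 9 and the choroid term 25; DESeq2 gave 1 to 4 for the other genotype comparisons and 3 for lithium by sex, and the choroid term 2 for genotype over drugs. Female against male (54) gave 83 with DESeq2, 33 without the 5 libraries, 87 with the olfactory term and 82 with both scores, and fluoxetine by sex (6) gave 3 with the stricter filter. Leaving out 1 mouse gave 377 to 687 for fluoxetine in HT (lowest without HT vehicle male 5), 159 to 373 for fluoxetine in WT (lowest without WT vehicle male 1, highest without WT fluoxetine female 5) and 0 to 81 for genotype under lithium (highest without WT lithium male 1). The cause of these changes was not tested. Counting error is largest for Htr4.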

Other observations

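A pair of further receptor genes in the table were Htr1d and Htr5b. Htr1d, a Gi/o-coupled receptor on serotonergic and other terminals, had 14.7, 59.0 and 105 normalized reads (lowest, median, highest) in HT lithium mice and 47.2, 68.4 and 132 in WT lithium mice, against 7.78, 50.6 and 94.5 in HT fluoxetine mice and 21.6, 43.9 and 68.0 in WT fluoxetine mice. It was 0.55 ± 0.20 higher on the log2 scale with lithium than with fluoxetine (limma adjusted p = 0.0442). Htr5b had 20.9, 35.0 and 64.9 normalized reads with lithium (n = 19), 14.9, 30.4 and 67.7 with fluoxetine (n = 20) and 19.1, 33.2 and 54.0 with vehicle (n = 19), and did not pass between any 2 of the drugs. Htr2b, Htr3b and the serotonin transporter gene Slc6a4 were not analysed here.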
